A study of Homo sapiens with 6 samples.

Results

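This section describes 52 human genes of collagen production in prostate cancer cells: the 44 collagen chain genes and 8 genes that modify, crosslink or fold collagen. The chain genes are all protein-coding genes in GENCODE 29 whose symbol is COL, a number, A and a number. The other 8 are the lysyl hydroxylase genes PLOD1, PLOD2 and PLOD3, the lysyl oxidase genes LOX, LOXL1, LOXL2 and LOXL4, and SERPINH1, which encodes the collagen chaperone HSP47. They are 52 of 59565 loci in the count table. The family was put together with the difference between these same libraries known, so the values that follow describe it and are not a test of it.

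Cells were of the established human line C4-2, which descends from LNCaP prostate cancer cells. The 6 libraries are 3 of parental C4-2 and 3 of its enzalutamide-resistant derivative, labelled Enz-R. Enzalutamide blocks the androgen receptor. The labels name no transgene or other agent in either group. They do not say whether Enz-R is 1 clone or a pool, how it was made, or whether the drug was present when the cells were collected.

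A collagen molecule is a triple helix of chains rich in glycine and proline. Chains are hydroxylated on proline and lysine in the endoplasmic reticulum and folded with the help of chaperones. Trimers are then exported and trimmed, and lysyl oxidases crosslink them in the matrix. Fibrillar types form the fibres of connective tissue, type IV forms the sheet of basement membranes, and type VII anchors epithelium to the tissue beneath it. In most tissues fibroblasts make the bulk of fibrillar collagen, while epithelial cells add basement membrane and anchoring components.

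Library totals were 15673404 to 28247038 counts. Mitochondrially encoded genes took 8.78% to 11.3% of the parental counts and 14.5% to 15.5% of the Enz-R counts. Their part in the differences was not tested, although leaving these genes out before scaling changed no call among the collagen genes. All 10 luminal prostate markers fixed for the check were well expressed in both groups, with a summed level of 9575 to 10195 CPM, the counts scaled to a common library size, in the parental and 5416 to 5639 CPM in the Enz-R libraries. The 11 fibroblast markers summed to 34.5 to 40.0 CPM and 24.4 to 29.1 CPM, most of it TAGLN. The defining fibroblast genes DCN, LUM and FAP had 1 to 4 counts over each group. The 6 endothelial markers summed to 10.6 to 12.8 CPM and 5.12 to 6.54 CPM, with PECAM1 and CDH5 at 1 to 4 counts over each group. The 6 leukocyte markers summed to 3.06 to 3.66 CPM and 2.46 to 3.15 CPM, with PTPRC at 2 and 6 counts. In such bulk libraries fewer cells of a kind and less RNA per cell cannot be told apart. The labels name no separate cultures, so the spread between libraries may be technical.

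Of the 52 genes, 35 passed the filter on low counts, 15 had some counts but too few, and COL6A5 and COL21A1 had 0 counts in all 6 libraries. By edgeR's quasi-likelihood test at an adjusted p under 0.05 over all genes, 23 of these 35 were called, 10 higher and 13 lower in Enz-R. That is 65.7% of them, where 64.8% of all 19029 tested genes were called, 32.4% higher and 32.3% lower. The count of called genes is therefore at the background of this comparison. The chain genes were called in both directions, with 10 of 28 higher and 8 lower and a median log2 fold change of 0.17. Of the 7 processing genes tested none was higher and 5 were lower, with a median of -0.68, against a median of 0.01 over all tested genes. Differences of at least 2-fold were found in 4 higher and 8 lower genes of the 35, where 11.0% of all tested genes were higher and 8.66% lower by that much. The 3 libraries of 1 group lay entirely above those of the other for 26 of the 35, 11 with Enz-R above and 15 with the parental line above, where 68.9% of all tested genes lay apart in this way, 34.2% with Enz-R above and 34.7% with the parental line above.

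**Figure D1:**
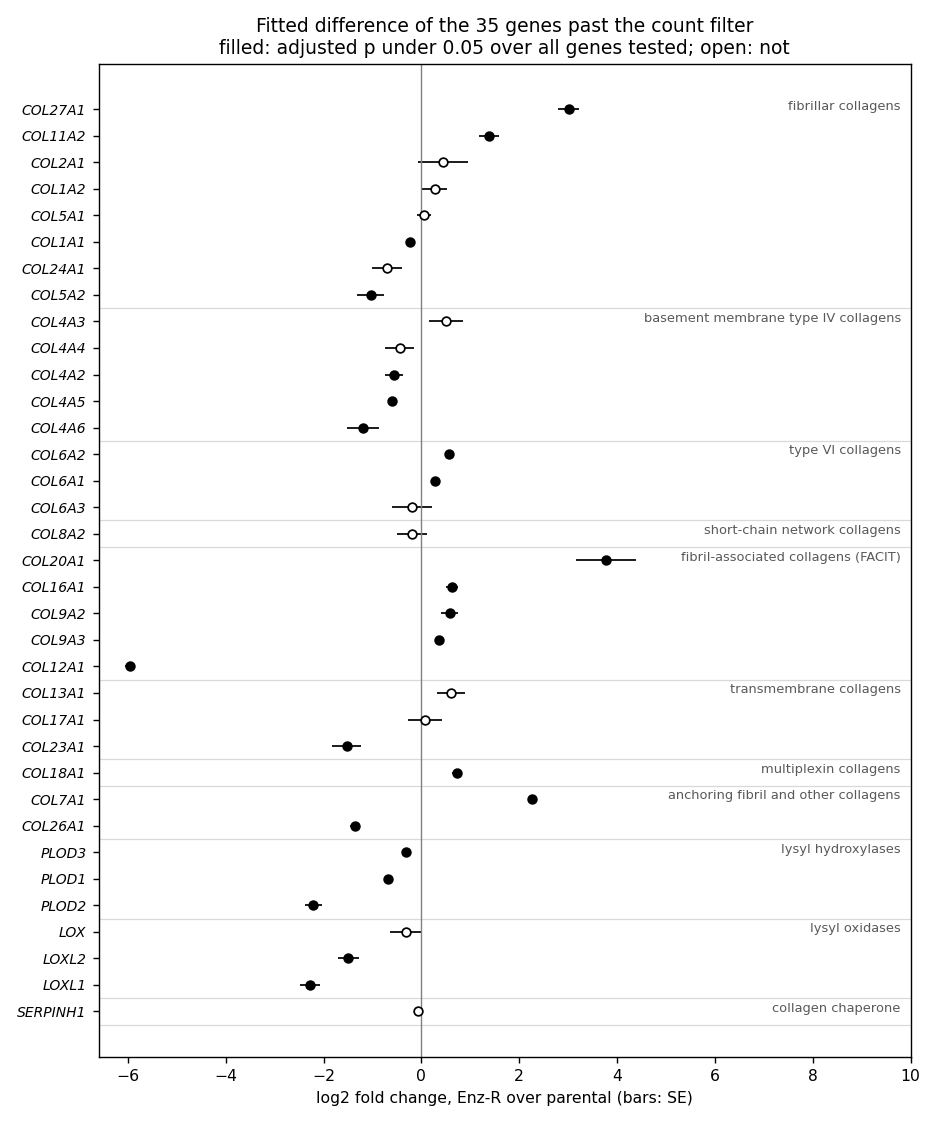
Log2 fold change of Enz-R over parental on the x axis, with its standard error, for the 35 collagen and collagen-processing genes that passed the count filter, grouped by role on the y axis. Filled points passed an adjusted p of 0.05 over all genes tested. COL12A1 lies farthest to the left at -5.96 and COL20A1 farthest to the right at 3.78, and all 7 processing genes lie left of 0.

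Large differences at more than trace levels were found in 6 genes, by the rule of a 2-fold or larger difference with a group mean of 5 CPM or more. COL12A1, COL26A1, PLOD2 and LOXL1 were lower in Enz-R, and COL7A1 and COL27A1 were higher. The 250 bases before the RefSeq start of each are printed here 5′ to 3′ on the gene's strand, since these are the regions where their transcripts begin. Positions are on GRCh38.p14. Capitals mark matches, on either strand, to the TATA box TATAAA, the GC box GGGCGG, the core of the hypoxia response element, ACGTG or GCGTG, and the androgen response half-site AGAACA. For PLOD2 and LOXL1 the RefSeq start lies 2469 and 473 bases inside the GENCODE gene, and for the other 4 within 62 bases of its edge.
COL12A1, chr6:75206054-75206303, minus strand: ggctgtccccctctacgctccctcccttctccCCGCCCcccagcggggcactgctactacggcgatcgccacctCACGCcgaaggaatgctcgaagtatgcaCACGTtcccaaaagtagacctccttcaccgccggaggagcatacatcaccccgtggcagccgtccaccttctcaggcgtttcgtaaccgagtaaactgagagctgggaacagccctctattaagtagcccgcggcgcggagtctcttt
COL26A1, chr7:101362625-101362874, plus strand: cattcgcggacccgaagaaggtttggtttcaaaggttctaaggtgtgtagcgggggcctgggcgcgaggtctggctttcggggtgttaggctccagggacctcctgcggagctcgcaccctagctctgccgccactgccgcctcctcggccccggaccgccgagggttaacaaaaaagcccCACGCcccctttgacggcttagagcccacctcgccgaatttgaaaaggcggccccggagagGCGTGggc
PLOD2, chr3:146161185-146161434, minus strand: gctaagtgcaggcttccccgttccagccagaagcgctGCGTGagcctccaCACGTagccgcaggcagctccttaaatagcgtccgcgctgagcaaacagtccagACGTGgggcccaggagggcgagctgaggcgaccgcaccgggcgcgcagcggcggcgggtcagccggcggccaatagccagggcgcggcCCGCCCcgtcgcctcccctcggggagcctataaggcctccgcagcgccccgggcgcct
LOXL1, chr15:73926212-73926461, plus strand: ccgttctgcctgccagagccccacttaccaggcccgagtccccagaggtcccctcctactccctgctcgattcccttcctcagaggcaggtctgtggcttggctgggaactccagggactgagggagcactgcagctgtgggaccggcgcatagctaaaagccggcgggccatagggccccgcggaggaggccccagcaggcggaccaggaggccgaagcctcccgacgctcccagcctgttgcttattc
COL7A1, chr3:48595330-48595579, minus strand: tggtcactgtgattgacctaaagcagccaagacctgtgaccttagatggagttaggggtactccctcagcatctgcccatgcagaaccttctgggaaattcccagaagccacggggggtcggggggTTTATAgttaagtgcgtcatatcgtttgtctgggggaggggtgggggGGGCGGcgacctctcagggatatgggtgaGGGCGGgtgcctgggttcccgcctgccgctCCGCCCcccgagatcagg
COL27A1, chr9:114155287-114155536, plus strand: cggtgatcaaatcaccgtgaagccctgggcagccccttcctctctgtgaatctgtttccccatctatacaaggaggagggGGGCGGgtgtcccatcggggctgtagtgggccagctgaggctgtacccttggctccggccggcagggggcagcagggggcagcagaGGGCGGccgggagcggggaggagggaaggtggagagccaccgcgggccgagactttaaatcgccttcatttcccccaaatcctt

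The hypoxia core occurred 3 times before PLOD2, 2 times before COL12A1 and 2 times before COL26A1. It had no match before COL7A1, COL27A1 or LOXL1. Of all 35116 RefSeq windows of this length, 43.2% hold it. The GC box occurred 3 times before COL7A1, 2 times before COL27A1 and once each before COL12A1 and PLOD2, and 42.6% of all windows hold it. COL7A1 was the only one of the 6 with TATAAA, which 10.7% of all windows hold. None of the 6 windows held AGAACA, found in 12.4% of all windows, and the promoter before LOXL1 matched none of the 4 motifs. RefSeq windows were at hand for 39 of the 52 genes. Of the 54 windows of these genes, 55.6% held the GC box, 44.4% the hypoxia core, 14.8% the TATA box and 7.41% the androgen half-site. A match is a run of letters and not a shown binding site.

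Fibrillar collagens form the rods that bundle into fibres. Of 11 genes 8 were tested, 2 were called higher, 2 lower and 4 neither. COL1A1, the main chain of type I collagen (ENSG00000108821, chromosome 17, 50183289 to 50201632), had 57.1, 53.8 and 53.5 CPM in the parental and 43.1, 45.6 and 51.8 CPM in the Enz-R libraries. The groups did not overlap, but the third Enz-R library came close to the parental ones. The log2 fold change was -0.23 ± 0.07 (SE). It was no longer called without Enz-R replicate 1 (-0.17) or Enz-R replicate 2 (-0.21).

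COL5A1, a chain of type V collagen that starts and limits fibril growth, had 10.3, 9.17 and 10.9 CPM against 8.36, 11.5 and 11.9 CPM. The groups overlapped and the difference was 0.05 ± 0.14, not called. Its partner COL5A2 was lower, at 1.64 ± 0.341 and 0.805 ± 0.0869 CPM (mean ± SD, n = 3 each), a log2 fold change of -1.04 ± 0.27.

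COL27A1, a fibrillar collagen of cartilage (ENSG00000196739, chromosome 9, 114155560 to 114312511), was 8.06-fold higher in Enz-R. It had 1.57, 0.851 and 1.17 CPM in the parental libraries and 8.36, 9.71 and 12.0 CPM in the Enz-R libraries. Every Enz-R library stood far above every parental one, and the log2 fold change was 3.01 ± 0.21. Its start is the window with 2 GC boxes printed above.

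COL11A2, a chain of type XI collagen of cartilage, was also higher, at 1.76 ± 0.182 and 4.61 ± 1.04 CPM (1.38 ± 0.21). The other fibrillar genes were low. COL24A1 stood at 1.17 ± 0.314 and 0.714 ± 0.176 CPM (-0.71 ± 0.31) and COL1A2 at 1.20 ± 0.0240 and 1.45 ± 0.339 CPM (0.27 ± 0.25), neither called. COL2A1, the cartilage collagen, had a value of 0.44 ± 0.51 and was not called. COL3A1 had 25 and 13 counts over the groups, COL11A1 had 8 and 15, and COL5A3 had 2 and 4, all below the filter. For COL5A3 the Enz-R level was 2.55 times the parental one, with a 95% counting interval of 0.365 to 28.1.

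Fibril-associated collagens sit on the surface of fibres and link them to other matrix. They held the widest spread of the family, from -5.96 for COL12A1 to 3.78 for COL20A1, a gene of few counts. Of 5 tested among 10 genes 4 were called higher and 1 lower, where 64.8% of all tested genes were called. COL12A1, whose product binds type I fibrils in tendon, skin and tumour stroma (ENSG00000111799, chromosome 6, 75084326 to 75206051), had 176, 171 and 175 CPM in the parental libraries. The Enz-R libraries had 2.38, 3.06 and 3.04 CPM. The raw counts were 5063, 3413 and 3589 against 52, 52 and 47. The gene was thus 62.4-fold lower in Enz-R, with a log2 fold change of -5.96 ± 0.09, and the value lay between -6.06 and -5.67 under the 15 alternatives. The 20 tested protein-coding genes nearest to COL12A1 had a median log2 fold change of -0.14, with a range of -2.38 to 0.96. Of these 10 were called lower and 5 higher.

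The makeup of the collagen transcripts differed accordingly. In the parental libraries COL12A1 held 18.1% ± 1.08 of all CPM of the 44 chain genes, and in Enz-R 0.278% ± 0.0351 (SD, n = 3 each). All chain genes together stood at 963 ± 71.0 CPM and 1017 ± 64.2 CPM, with libraries of 913 to 1044 and 978 to 1091 CPM that overlapped. The sum without COL12A1 was 789 ± 68.9 and 1014 ± 64.0 CPM. There the lowest Enz-R library, at 975 CPM, stood above the highest parental one, at 868 CPM. COL12A1 was left out after its value was seen, which by itself moves the sum towards Enz-R, so this separation only describes the sum. The higher sum lay mainly in COL6A1 with COL6A2, at 491 and 632 CPM, and in COL7A1, at 22.0 and 106 CPM. It does not show a rise across the other chains.

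COL9A3 and COL9A2, chains of type IX collagen of cartilage surfaces, were slightly higher in Enz-R. COL9A3 had 30.4, 28.5 and 29.7 CPM against 38.7, 36.1 and 38.7 CPM, without overlap (0.36 ± 0.07). COL9A2 stood at 4.20 ± 0.678 and 6.29 ± 1.11 CPM (0.57 ± 0.17). Both calls were lost when GC content and transcript length were regressed out, with log2 fold changes of 0.07 and 0.36. COL16A1, found in skin and smooth muscle, had 28.9, 19.2 and 20.1 CPM against 36.8, 32.6 and 36.2 CPM (0.62 ± 0.12). Parental replicate 1 was the highest of its group but still under every Enz-R library.

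COL20A1 counts were 1, 3 and 0 against 26, 13 and 9 in Enz-R, a log2 fold change of 3.78 ± 0.62. The gene passed the count filter only through the Enz-R libraries, so its call is no support. It is among the 10 genes called higher and the 4 higher by at least 2-fold. With so few parental counts the size is loose. The log2 fold change was 3.29 without parental replicate 3 and 5.05 without parental replicate 2. COL14A1, COL22A1, COL9A1 and COL19A1 had at most 23 counts over a group. COL9A1 summed to 10 parental counts and 1 Enz-R count, a ratio of 7.86 with a 95% counting interval of 1.12 to 341. COL22A1 summed to 3 and 8 counts, with Enz-R 3.39 times as high (0.815 to 19.9). Such intervals cover counting error only.

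**Figure D2:**
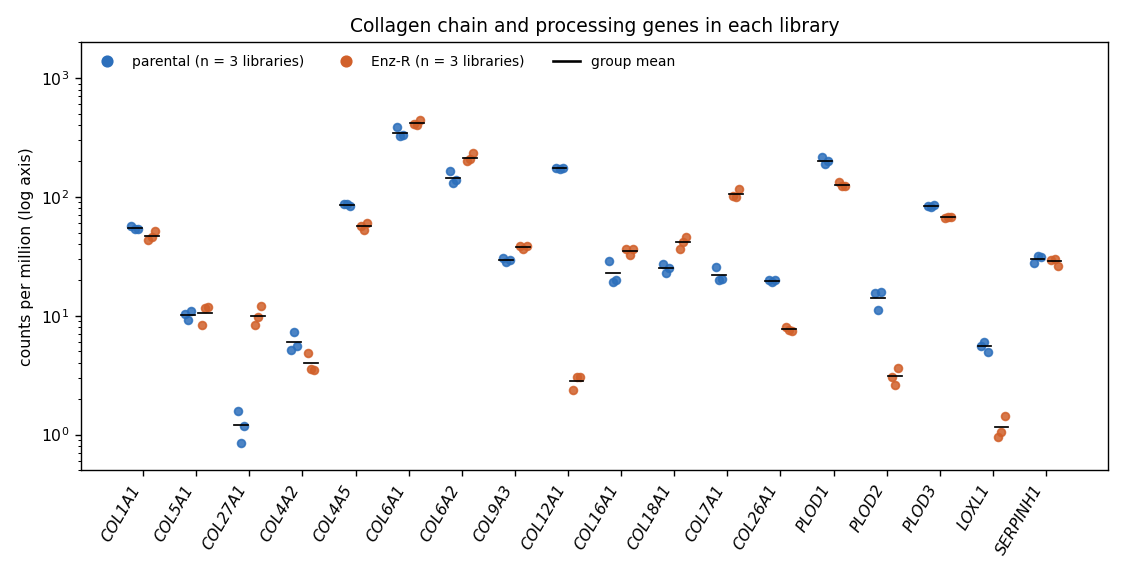
CPM on a log axis (y) in each of the 3 parental and 3 Enz-R libraries for the 18 collagen and collagen-processing genes described library by library (x), with the group mean as a line. COL12A1 stands at 171 to 176 CPM in the parental line and at 2.38 to 3.06 CPM in Enz-R, and COL7A1 goes from 19.9 to 25.7 CPM in the parental line to 100.1 to 117 CPM in Enz-R, while SERPINH1 and COL5A1 overlap between the groups.

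Type IV collagens form the network of basement membranes. Of 5 tested none was called higher and 3 lower, where 32.4% of all tested genes were higher and 32.3% lower. COL4A5 (ENSG00000188153, chromosome X, 108439844 to 108697545), the chain mutated in X-linked Alport syndrome, was the most abundant. It had 87.4, 87.0 and 83.4 CPM in the parental and 57.4, 52.9 and 59.9 CPM in the Enz-R libraries, well apart, with a log2 fold change of -0.60 ± 0.06. The size shrank to -0.37 with GC content and length regressed out, still called. COL4A2 had 5.12, 7.31 and 5.52 CPM against 4.89, 3.59 and 3.49 CPM (-0.56 ± 0.18). These groups nearly touched, and the call was lost without parental replicate 2 (-0.40), Enz-R replicate 2 (-0.48) or Enz-R replicate 3 (-0.47).

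COL4A6 was lower as well, at 1.30 ± 0.314 and 0.564 ± 0.0974 CPM (-1.19 ± 0.32). COL4A3 (0.51 ± 0.35) and COL4A4 (-0.45 ± 0.30) had means of 0.483 to 1.03 CPM and were not called. COL4A1 had 40 and 21 counts over the groups and was below the filter. The 6 genes lie in 3 head-to-head pairs, COL4A1 with COL4A2, COL4A3 with COL4A4 and COL4A5 with COL4A6. The nearest RefSeq starts within these pairs were 127, 419 and 380 bases apart.

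Type VI collagen forms beaded filaments around cells and was the most abundant collagen here. COL6A1 (ENSG00000142156, chromosome 21, 45981737 to 46005050) had 388, 323 and 329.7 CPM against 409, 404 and 442 CPM. All Enz-R libraries were higher, parental replicate 1 came close, and the log2 fold change of 0.27 ± 0.08 was not called without parental replicate 2 (0.21). It was 0.17 with GC content and length regressed out and 0.18 with scaling by total counts only. COL6A2, which lies 93.0 kb downstream on the same strand, had 165, 130.0 and 138 CPM against 199, 209 and 234 CPM (0.57 ± 0.09). Together the 2 genes held 50.9% ± 1.78 of chain gene CPM in the parental line and 62.2% ± 0.379 in Enz-R. COL6A3 had 0.763 ± 0.428 and 0.631 ± 0.154 CPM and was not called (-0.20 ± 0.41), and COL6A6 had 8 and 3 counts over the groups, a ratio of 2.09 (0.503 to 12.3).

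COL7A1 encodes the chain of anchoring fibrils (ENSG00000114270, chromosome 3, 48564073 to 48595267), and its gain in mean CPM was the largest among the 44 chain genes. It had 25.7, 19.9 and 20.3 CPM in the parental libraries and 102, 100.1 and 117 CPM in Enz-R. That is 4.81-fold higher, a log2 fold change of 2.27 ± 0.10, and 2.17 to 2.39 under the alternatives. The 20 nearest tested genes had a median of 0.08 and a range of -0.67 to 0.95.

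COL18A1, a multiplexin of basement membranes whose C-terminal fragment is endostatin, had 27.0, 22.8 and 25.1 CPM against 36.6, 42.0 and 45.7 CPM (0.72 ± 0.09). Of its exon bases 16.4% overlap SLC19A1 on the other strand, and without strand the reads there cannot be told apart. COL26A1 (ENSG00000160963, chromosome 7, 101362820 to 101559024) went the other way. It had 20.1, 19.3 and 19.9 CPM against 8.09, 7.53 and 7.51 CPM, 2.55-fold lower (-1.35 ± 0.10), with narrow spread in both groups.

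The remaining chains had means of at most 2.32 CPM. Of the transmembrane collagens, which stay on the cell surface, COL23A1 was lower at 1.77 ± 0.380 and 0.616 ± 0.0853 CPM (-1.53 ± 0.29). COL13A1 stood at 0.61 ± 0.28, not called. Enz-R replicate 3 was high at 3.49 CPM, against 1.87 and 1.59 CPM in the other libraries of the group. COL17A1, the hemidesmosome collagen, had 0.07 ± 0.35, and COL25A1 had 2 and 3 counts. Among short-chain collagens COL8A2 had -0.20 ± 0.31 and was not called, with COL8A1 and COL10A1 below the filter. COL28A1 summed to 22 parental counts and 1 Enz-R count, a ratio of 17.3 with a 95% counting interval of 2.79 to 713. COL15A1 had 0 and 2 counts.

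Several collagens assemble from different chains, so levels were also compared between partner genes as CPM per kilobase of exon. The partners were far from equal in both groups. COL6A1 and COL6A2 stood at 64.9 ± 6.67 and 26.8 ± 3.40 per kb in the parental line and 78.3 ± 3.86 and 39.8 ± 3.39 in Enz-R. COL6A3, the third chain of the usual type VI trimer, was at 0.0389 ± 0.0218 and 0.0322 ± 0.00782 per kb, at least 947-fold below COL6A1 in each library. COL1A1 was at 5.58 ± 0.202 and 4.77 ± 0.455 per kb, and COL1A2 at 0.107 ± 0.00215 and 0.130 ± 0.0303. The ratio of COL1A1 to COL1A2 ran from 30.6 to 53.2 over the 6 libraries.

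Between the groups the ratio of COL6A1 to COL6A2 was 2.37, 2.50 and 2.41 in the parental and 2.07, 1.95 and 1.90 in the Enz-R libraries, without overlap. The ratio of COL5A1 to COL5A2 was 3.41 to 4.64 in the parental line and 6.42 to 10.9 in Enz-R, also apart. The ratios of COL4A5 to the other chains of its network went in different directions. Against COL4A3, which had only 7 to 17 counts in a library, COL4A5 was 121-fold to 188-fold higher in the parental and 56.8-fold to 69.1-fold higher in the Enz-R libraries. Against COL4A6 it was 42.5-fold to 70.1-fold and 70.3-fold to 98.3-fold higher, apart by a narrow margin, and against COL4A4 54.7-fold to 86.8-fold and 59.3-fold to 65.5-fold, with overlap. COL4A2 exceeded COL4A1 by 5.16-fold to 15.5-fold, although their starts are the closest of the 3 pairs, and that ratio overlapped between the groups. COL4A1 had only 3 to 16 counts in a library, with 3 in Enz-R replicate 2, where the ratio was 15.5. COL9A3 stood 4.68-fold to 7.16-fold above COL9A2, with overlap.

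**Figure D3:**
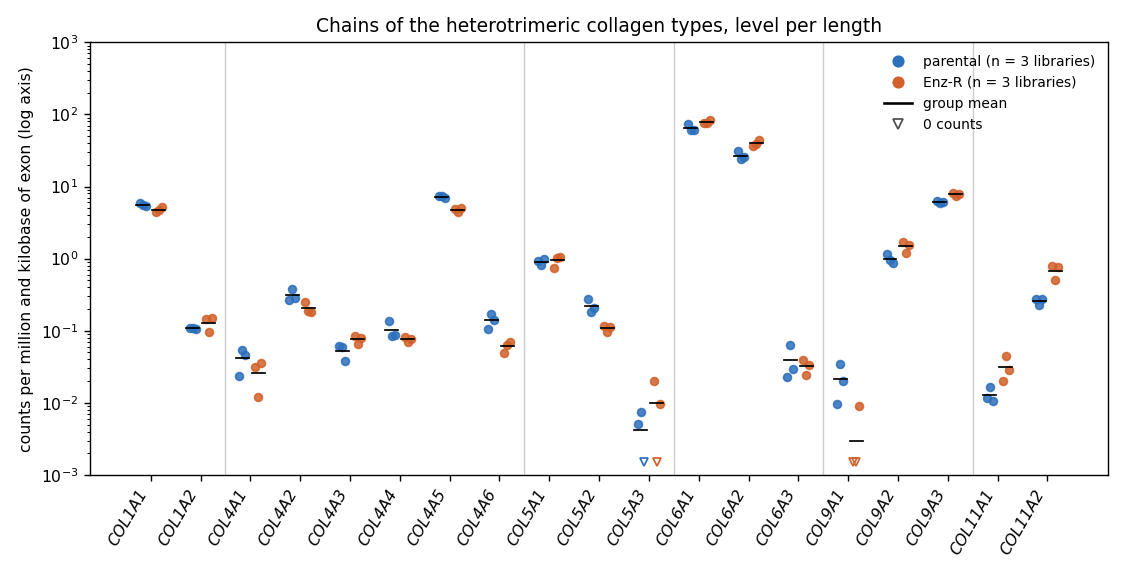
CPM per kilobase of exon on a log axis (y) for the chains of collagen types I, IV, V, VI, IX and XI (x), in each parental and Enz-R library, with the group mean as a line and triangles for 0 counts. COL6A1 and COL6A2 have parental means of 64.9 and 26.8 per kb against 0.0389 for COL6A3, and COL1A1 has 5.58 against 0.107 for COL1A2.

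Ordered by level per length, COL6A1 came first in both groups among the 52 genes. In the parental line PLOD1 (38.0 ± 2.38 per kb), COL6A2 (26.8 ± 3.40), PLOD3 (14.8 ± 0.273) and COL12A1 (14.0 ± 0.226) came next, and the last 2 of these were within 1 per kb of each other. In Enz-R the order was COL6A2 (39.8 ± 3.39), PLOD1 (23.7 ± 1.21), PLOD3 (11.9 ± 0.114) and COL7A1 (9.61 ± 0.841). COL12A1 moved from place 5 to place 21, COL7A1 from place 13 to place 5 and COL27A1 from place 30 to place 15.

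Lysyl hydroxylases add the hydroxyl groups on which collagen crosslinks and sugars are built. All 3 were called lower in Enz-R, where 32.3% of all tested genes were called lower. PLOD1 (ENSG00000083444, chromosome 1, 11934205 to 11975538), which acts mainly on the helix, had 216, 191 and 200.4 CPM against 134, 122 and 122 CPM (-0.68 ± 0.07). PLOD3, which also has glycosyltransferase activity, had 84.5, 82.3 and 85.3 CPM against 67.0, 68.2 and 67.1 CPM (-0.32 ± 0.06, and -0.49 with GC content and length regressed out). The groups were tight and apart in both genes. Of the PLOD3 exon bases 7.56% overlap ZNHIT1 on the other strand.

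PLOD2, the hydroxylase of the telopeptides (ENSG00000152952, chromosome 3, 146069440 to 146163653), showed the largest difference of the 3. It had 15.6, 11.1 and 15.9 CPM in the parental and 3.06, 2.59 and 3.62 CPM in the Enz-R libraries, 4.62-fold lower (-2.21 ± 0.17). Its promoter is the one with 3 hypoxia cores among those printed above. The 20 nearest tested genes had a median of 0.00.

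Lysyl oxidases start the crosslinks between collagen molecules. LOXL1, which also crosslinks elastin (ENSG00000129038, chromosome 15, 73925989 to 73952137), had 5.54, 6.06 and 4.93 CPM against 0.959, 1.06 and 1.42 CPM. It was 4.86-fold lower (-2.28 ± 0.20). Of its exon bases 9.21% overlap LOXL1-AS1 on the other strand. LOXL2, active on basement membrane collagen, was lower at 4.02 ± 0.665 and 1.41 ± 0.263 CPM (-1.50 ± 0.21). LOX stood at 0.880 ± 0.129 and 0.695 ± 0.190 CPM, not called (-0.32 ± 0.31), and LOXL4 had 10 and 7 counts. The 4 genes summed to 10.6 ± 0.181 and 3.38 ± 0.378 CPM.

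SERPINH1, the chaperone that binds the folded helix in the endoplasmic reticulum, had 27.8, 31.7 and 31.2 CPM against 29.5, 29.9 and 26.4 CPM. The groups overlapped and the gene was not called (-0.07 ± 0.08).

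Other genes of collagen handling were grouped by their known function in 8 lists. They hold 104 genes outside the 52, of which 67 were tested. By edgeR's test 14 were higher and 25 lower, or 58.2% called, which is below the 64.8% of all tested genes. Their median log2 fold change was -0.12. List medians ran from -0.51 to 0.34, and neither the lists nor differences between them were tested. The share called ran from 25.0% for collagen receptors to 85.7% for breakdown and its inhibitors. The counts per list below stand beside 32.4% of all tested genes called higher and 32.3% called lower. The adjusted p-values printed below belong to genes named for their size among genes already called. They describe these genes and are no support for them.

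Prolyl hydroxylation and folding went both ways, with 3 of 12 genes higher, 5 lower and a median of -0.07. P4HB, the disulfide isomerase subunit of prolyl 4-hydroxylase, fell from 732 ± 25.2 to 555 ± 22.6 CPM (-0.40 ± 0.06, edgeR adjusted p = 6.06e-05). PPIB, the cyclophilin that speeds helix folding, fell by 0.40 ± 0.06 (edgeR adjusted p = 2.18e-05). P3H2, a prolyl 3-hydroxylase of basement membrane collagen, fell 12.3-fold from 5.28 ± 0.459 to 0.418 ± 0.159 CPM (edgeR adjusted p = 9.28e-09). Its Enz-R counts were 11, 4 and 8, and it passed the count filter only through the parental libraries. The call of P3H2, among the 5 lower, is therefore no support. P3H3 (0.83 ± 0.09), the immunophilin gene FKBP10 (0.67 ± 0.07) and CRTAP (0.31 ± 0.06), a partner of prolyl 3-hydroxylase, rose. With GC content and length regressed out CRTAP had 0.54.

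Of the other lysyl modification genes both collagen galactosyltransferase genes fell, COLGALT1 by 0.36 ± 0.06 and COLGALT2 by 1.23 ± 0.18, and LOXL3 was not called (-0.11 ± 0.16). Export from the endoplasmic reticulum showed 7 of 12 lower and 1 higher, with a median of -0.43. That is 66.7% called, near the 64.8% of all tested genes, of which 32.3% were lower. The COPII coat genes SEC23B (-1.43 ± 0.08, edgeR adjusted p = 7.54e-10), SEC24D (-1.37 ± 0.09) and SEC31A (-0.95 ± 0.07) fell. These coats carry all secretory cargo, not collagen alone. The gene that rose was CREB3L1, a transcription factor of secretory genes, at 0.397 and 2.11 CPM (2.42 ± 0.29), named after its value was seen. Its counts were 10, 10 and 7 in the parental and 50, 38 and 28 in the Enz-R libraries. CREB3L1 passed the count filter only through the Enz-R libraries, so its call is no support.

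Propeptide processing had 1 higher and 2 lower of 6. PCOLCE, an enhancer of C-propeptide cleavage, rose from 35.5 ± 2.31 to 66.0 ± 7.04 CPM (0.89 ± 0.08, and 0.58 with GC content and length regressed out). The proprotein convertase gene FURIN fell by 1.09 ± 0.07, and BMP1, the C-proteinase gene, by 0.27 ± 0.09. The BMP1 call was lost without parental replicate 2 (-0.27) or Enz-R replicate 2 (-0.21). Breakdown and its inhibitors had 3 higher and 3 lower of 7. The membrane protease gene MMP16 fell by 1.03 ± 0.09, while CTSK, encoding the collagen-cutting cathepsin K (0.70 ± 0.11), the prolidase gene PEPD (0.37 ± 0.07) and TIMP2 (0.24 ± 0.06) rose. These were smaller, at 0.18 for PEPD with GC content and length regressed out and at 0.15 for TIMP2 with total counts only, and still called. The other 2 that fell, MMP14 (-0.96 ± 0.27) and MRC2 (-1.15 ± 0.35), had under 2 CPM and are named after their values were seen.

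Collagen receptors had 1 of 8 higher and 1 lower. The riser was OSCAR, at 1.38 and 2.84 CPM (1.01 ± 0.26), named after its value was seen. ITGB1, the shared beta chain of the collagen-binding integrins, fell from 302 ± 14.4 to 140.3 ± 5.93 CPM (-1.10 ± 0.06, edgeR adjusted p = 1.08e-09). The discoidin receptor gene DDR1 stood at 236 and 228 CPM and was not called. Fibril-associated matrix genes had 4 of 8 lower and none higher, with a median of -0.51. THBS1, the thrombospondin gene, fell 22.0-fold from 273 ± 17.7 to 12.3 ± 1.32 CPM (-4.46 ± 0.09, edgeR adjusted p = 5.78e-15), and the fibulin genes FBLN1 (-2.19 ± 0.12) and FBLN2 (-1.37 ± 0.07) fell. Other proteins with a collagen triple helix had 5 of 11 higher and 1 lower. C1QTNF3 (1.67 ± 0.15), which overlaps the readthrough locus C1QTNF3-AMACR and is uncertain, C1QTNF6 (0.43 ± 0.07) and EDA (0.37 ± 0.09) rose, and the scavenger receptor gene COLEC12 fell by 1.95 ± 0.09.

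**Figure D4:**
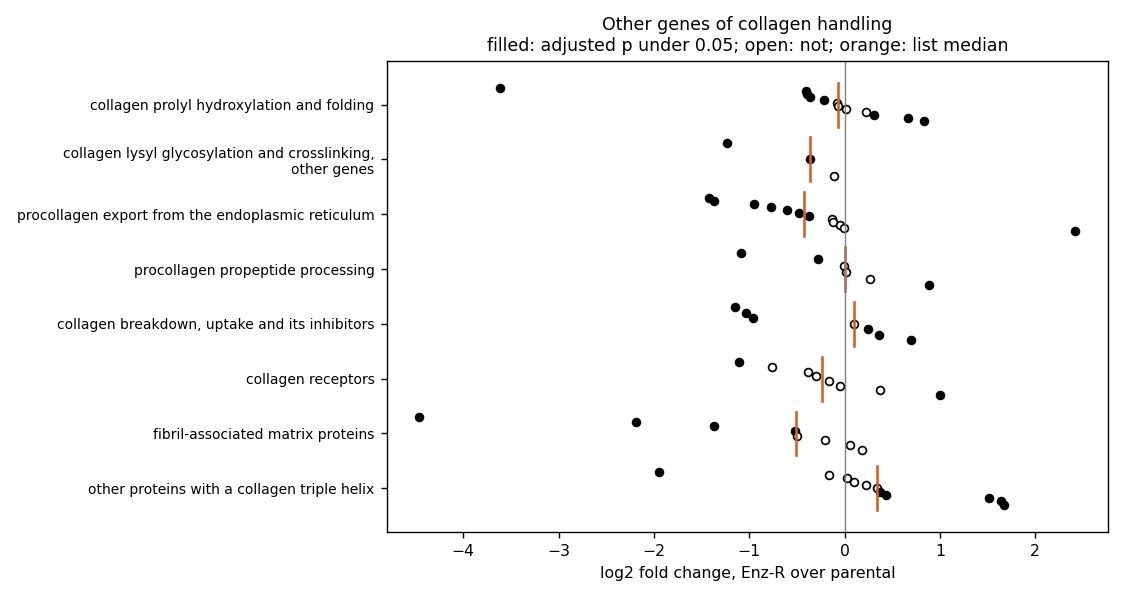
Log2 fold change of Enz-R over parental (x) for the 67 tested genes of 8 lists of collagen handling (y), 1 point per gene, filled where the adjusted p was under 0.05, with the list median as an orange line. The export list has 7 filled points left of 0 and 1 right of it, or 66.7% called, where 64.8% of all tested genes were called. The 1 on the right, CREB3L1, passed the count filter only through the Enz-R libraries. THBS1 in the fibril-associated list lies farthest left at -4.46.

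Gene length, base composition and position took no part in the choice of genes. The tested chain genes are long and rich in G and C, with a median exon length of 9.20 kb and a median transcript GC content of 61.5%, against 5.06 kb and 49.0% over 13580 tested protein-coding genes. By position, the median log2 fold change of the 20 nearest tested genes lay between -0.47 and 0.48 for all 35 tested genes, with 19 neighbours for COL6A2. It had the sign of the gene itself in 22 of 35. The windows differ in width, with 48157146 to 49007154 on chromosome 3 for COL7A1 and 70856679 to 79947580 on chromosome 6 for COL12A1. Each median is over many genes, so it cannot show a change confined to 1 gene. Copy number was not analysed here, and a part of position in the differences was not tested.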

How the data were processed

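RNA was measured in 6 libraries, 3 of parental C4-2 cells and 3 of Enz-R cells, sequenced as 150 bp paired-end reads, per the labels' protocols. The deposited table holds raw counts per gene locus, and the submitters' processing notes name HISAT2 and the GRCh38 build for how the authors made it. Version, counting tool, annotation and strand setting: not given in the sources used here. The kit is not stated to mark strand, so reads of overlapping genes cannot be told apart. Of 59565 loci, 58676 matched GENCODE 29, which gave types, positions and exon lengths. Exon length counts each base of all annotated exons of a gene once, so levels per kilobase depend on the annotation. Symbols came from a current list of gene names. Unannotated loci held 0.305% to 0.408% of the counts and stayed in the fit.

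All 6 libraries entered 1 edgeR fit (version 4.0.16, R 4.3.3) by filterByExpr, TMM, glmQLFit and glmQLFTest without covariates, with Benjamini-Hochberg adjusted p-values across the 19029 genes tested, with 0.05 as the threshold. CPM use library totals scaled by TMM factors, while each log2 fold change is edgeR's, with an SE taken from its F statistic. Variation between libraries beyond counting error had a common coefficient of 7.20%. It may be technical, since the labels name no separate cultures. Ratios for 1 to 3 counts in a group carry exact 95% counting intervals.

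The genes and lists were chosen with earlier results of these data known. Collagen genes were described in each library if a group mean reached 5 CPM and the absolute log2 fold change was 1 or more, or were among the next 2 by level in their role with at least 5 CPM. Up to 3 risers and 3 fallers were named per list, from called genes without overlap and with at least 5 CPM.

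Alternatives were a replicate block, leaving out each library, DESeq2 size factors, total counts only, 2 other filters, DESeq2 1.42.0, limma-voom (limma 3.58.1), mitochondrially encoded genes left out, and GC content and transcript length regressed out by splines with 5 degrees of freedom (values for 96.3% of tested genes). Simulated data for the comparison of Enz-R with parental held 19029 genes. Recovered were 60.0% of 75 planted 1.5-fold changes, 82.9% of 70 planted 2-fold changes and 94.5% of 55 planted 4-fold changes. Of 18829 unchanged genes 16 were called. In the real libraries 64.8% of genes were called, a far larger share than was planted. The simulated figures therefore do not measure recovery or false calls in the real comparison. Replicate pairs differed by more than counting error, with a chi-square per degree of freedom of 4.30 to 10.1. Promoter windows are from RefSeq. Python 3.11.15 with pandas 2.3.3, scipy 1.17.1 and matplotlib 3.10.9 was used.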

Additional observations from a re-analysis of the deposited data

How the results depend on the processing

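Of 23 called collagen and processing genes, 18 stayed called in the same direction under all 15 alternatives that tested them, and none changed sign. The other 5 were COL1A1, COL4A2, COL6A1, COL9A2 and COL9A3. Counts of calls ran from 19 (at least 50 counts in 3 libraries, where 21 of the 35 genes were tested) to 25 (no filter beyond a nonzero total), and from 21 to 24 leaving out 1 library at a time. The 67 tested list genes gave 33 to 43 calls. Same-numbered libraries did not vary together (correlations of deviations -0.01 to 0.05), so the numbers are not taken as pairs, and the replicate block gave 24 collagen and 40 list calls. COL13A1 and COL24A1 gained a call under at least 1 alternative, as did COL28A1, which is below the filter and was called lower in both alternatives that tested it. Changes of sign were found in genes that were not called: COL5A1 was -0.039 with total counts only and ran from -0.0338 (without Enz-R replicate 3) to 0.21 leaving out 1 library at a time. COL2A1 ran from -0.026 (without Enz-R replicate 3) to 0.98, COL6A3 from -0.52 to 0.31 (without parental replicate 2) and COL17A1 from -0.00153 (without Enz-R replicate 3) to 0.13 in the same way. COL6A3 was 0.085 with GC content and length regressed out, and COL17A1 was -0.023 with total counts only. Total counts only put the median of all genes at -0.08 and the share of higher calls at 42.3%, against 0.01 and 50.1%. Genes below about 1 CPM rest on few counts per group, so small differences in them were not detectable at this depth.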
